A study of Mus musculus with 18 samples.

Results

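Cytochrome P450 enzymes of families 1 to 4 were examined in mice with sepsis, of which one group breathed molecular hydrogen (H2). The genes were chosen by symbol alone: Cyp, a digit from 1 to 4, a letter and a number, with pseudogene symbols that end in -ps left out. Of 24346 gene symbols, 80 were taken, 3 of family 1, 48 of family 2, 9 of family 3 and 20 of family 4, in 21 subfamilies. Of these, 5 carry a letter after the number (Cyp3a41a, Cyp3a41b, Cyp4a12a, Cyp4a12b and Cyp4a30b). Left out were 5 further symbols with the same start, Cyp2c53-ps, Cyp2d37-ps, Cyp4f41-ps, Cyp4b1-ps2 and the opposite-strand transcript Cyp4x1os.

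P450 enzymes are membrane-bound heme proteins that use oxygen and electrons from the reductase Por to oxidise lipophilic molecules. Families 1 to 3 clear drugs, toxicants, steroids and bile acids, mostly in the pericentral hepatocytes of the liver, and family 4 oxidises the far end of fatty acids and eicosanoids. The genes answer to ligand-activated receptors, among them the aryl hydrocarbon receptor (Ahr), the constitutive androstane receptor (Nr1i3, CAR), the pregnane X receptor (Nr1i2, PXR) and Ppara, and hepatic P450 mRNA is known to fall during inflammation.

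Male C57BL/6 mice were 9 weeks old at cecal ligation and puncture (CLP), an operation that lets gut contents leak and causes polymicrobial sepsis. H2 mice breathed 7% H2 without interruption from the operation on, and control mice had CLP without the gas. H2 mice shared a cage inside a box fed by a gas generator, so gas and housing cannot be told apart. Liver, intestine and lung were taken at 24 h, with 3 libraries per organ and treatment (18 in all), and mice with a sham operation are not analysed here. The labels do not say which organs came from the same mouse, or that the 3 libraries of a group are 3 mice, so p-values measure the spread between these libraries. In bulk tissue, fewer cells of a type and less RNA per cell cannot be told apart.

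Expression is given as FPKM, fragments scaled to transcript length and to the mapped fragments of the library. From the steps between low FPKM values, the libraries held about 8710000 to 15850000 fragments, so 1 fragment in a transcript of 2 kb is worth 0.0315 to 0.0574 FPKM. Hepatocyte markers summed to 73742 to 102462 FPKM in liver libraries and 6.22 to 46.5 FPKM in lung libraries, and club cell markers to 121342 to 164031 FPKM in lung. Libraries of a group differed. H2 intestine 2 had the largest total, 1142966 FPKM, against 712858 to 850609 FPKM in the other intestine libraries, and the lowest estimated depth. Control 2 was the control library nearest to the H2 mean for 64.0% of 10041 liver genes, and control 3 for 59.0% of 13424 lung genes. Liver and lung results are also given without these libraries. As they are the controls nearest to H2 for most genes, leaving them out favours calls, and such calls are no independent support.

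Most P450 genes with a mean of at least 1 FPKM in some organ were highest in 1 organ, though not always confined to it. Cyp3a13, highest in intestine, averaged 81.8 FPKM in liver. A gene was tested in an organ where its mean over the 6 libraries was at least 1 FPKM, which 44 genes reached in liver, 26 in intestine and 20 in lung. Together 55 genes reached it in some organ and 9 in all 3. Cyp2j12, Cyp2w1, Cyp3a16 and Cyp4a30b were listed at 0 in all 18 libraries. Of the 55 genes, 27 were higher in every liver library than in any library of the other organs, 9 in every intestine library and 7 in every lung library, while 12 stood apart in none.

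The summed level was of like size in liver and lung. In liver the 80 genes summed to 2932, 3336 and 3018 FPKM in H2 libraries, against 2921, 2210 and 1882 FPKM in control libraries. Cyp2e1, which oxidises ethanol and paracetamol, made up 35.1% of that sum. In intestine the sums were 770, 1198 and 725 FPKM in H2 libraries, against 630, 514 and 711 FPKM in control libraries, with 35.9% from Cyp4f14, a fatty acid and leukotriene hydroxylase. In lung the sums were 2783, 3360 and 2987 FPKM in H2 libraries, against 1555, 2218 and 2776 FPKM in control libraries, with 61.1% from Cyp2f2, the naphthalene-oxidising enzyme of club cells. Every H2 sum was above every control sum in all 3 organs, although the gap between the lowest H2 and the highest control sum was 11.1 FPKM in liver, 13.4 FPKM in intestine and 6.3 FPKM in lung. Taken as a percentage of all FPKM of a library, the intestinal sums overlapped. They were 0.091, 0.105 and 0.097 in H2 intestines, against 0.086, 0.072 and 0.096 in control intestines. In liver and lung these percentages did not overlap.

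**Figure D1:**
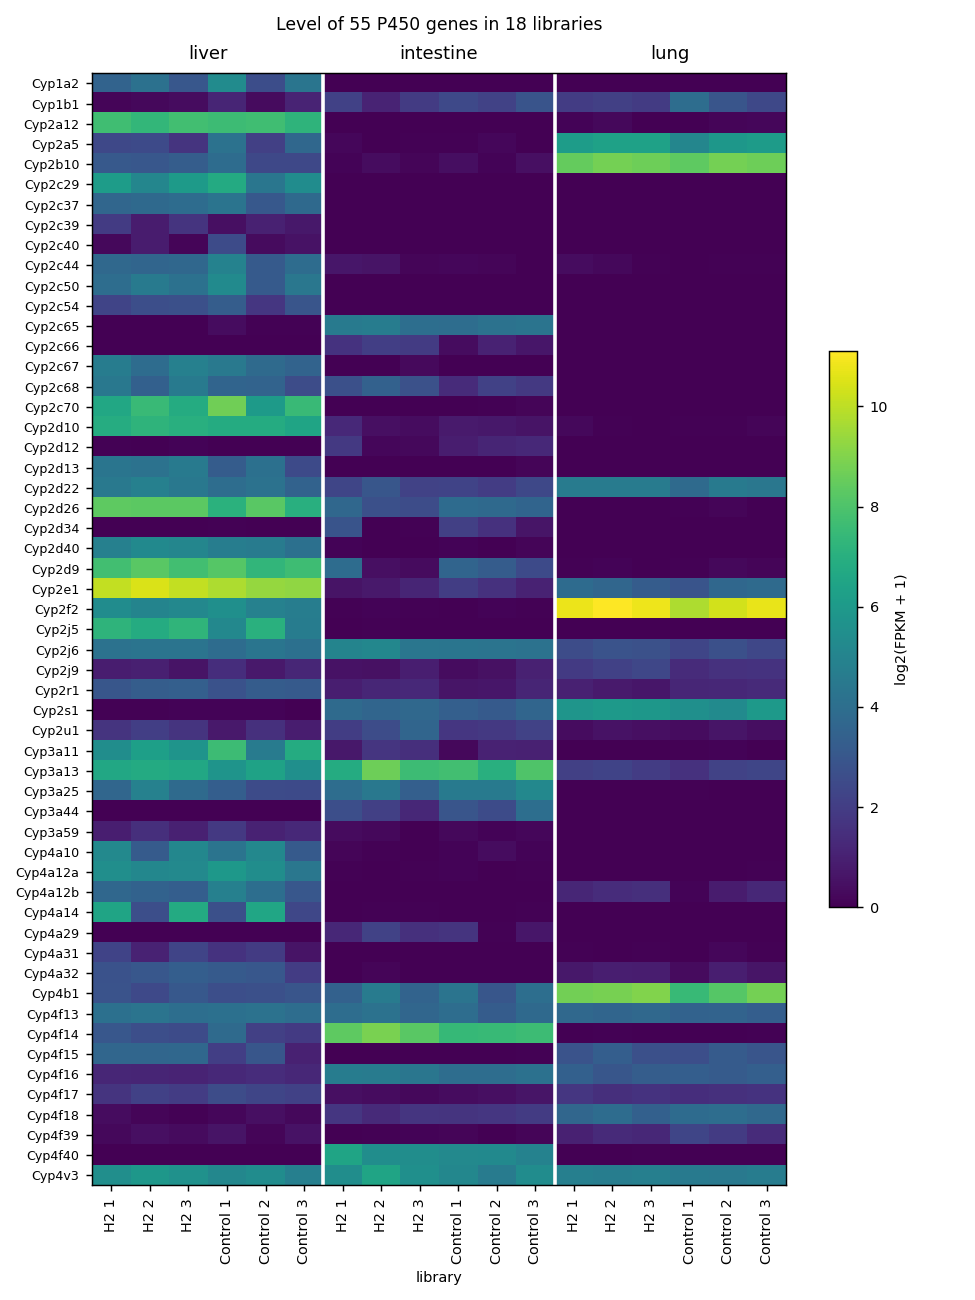
Level of the 55 P450 genes with a mean of at least 1 FPKM in some organ (rows) in the 18 libraries (columns, H2 left of control in each organ), coloured by log2(FPKM + 1). Cyp2e1 is the brightest row in liver, Cyp4f14 and Cyp3a13 in intestine and Cyp2f2 in lung.

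Reads of near-identical family members limit how well single genes can be read. Of 78 genes with a GENCODE position on mm10, 30 shared over 20% of their transcript 50-base words with another gene and 5 over 50%, while 32 shared at most 5%. Cyp3a41a shared 98.6% and Cyp3a41b 93.5%. Cyp4a12a shared 48.9% and Cyp4a12b 49.4%. Cyp2c68 shared 43.3%, most of it with Cyp2c40, and Cyp2c66 24.0%, all with Cyp2c65. Values of these genes are uncertain, since how shared reads were split is not given in the sources used here. Cyp2e1, Cyp2f2, Cyp4f14, Cyp4f15 and Cyp1b1 shared at most 4.8%. Many members lie side by side: 14 Cyp2c genes at chr19:39007019-40187333 and 8 Cyp2d genes at chr15:82370527-82794294.

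In liver, no P450 gene passed the test, and the 6 members with the smallest p were Cyp2e1, Cyp4f15, Cyp3a25, Cyp3a13, Cyp2d22 and Cyp2u1, all with higher values in H2 livers. Of 44 genes tested, 0 were called at a limma adjusted p under 0.05, where 0.0199% of all tested liver genes were. At an unadjusted p under 0.05 there were 12 higher and 1 lower, which is 12 of 44 against 10.9% of all genes higher, and 1 of 44 against 10.2% lower. Groups did not overlap for 11 genes higher and 2 lower in H2, against 12.2% and 13.1% of all genes. The median log2 change of the 44 genes was 0.18, against -0.02 over all tested genes, with 31 of 44 above 0, as under both other scalings, against 46.8% of all genes. The plot of log2 changes shows them by organ.

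**Figure D2:**
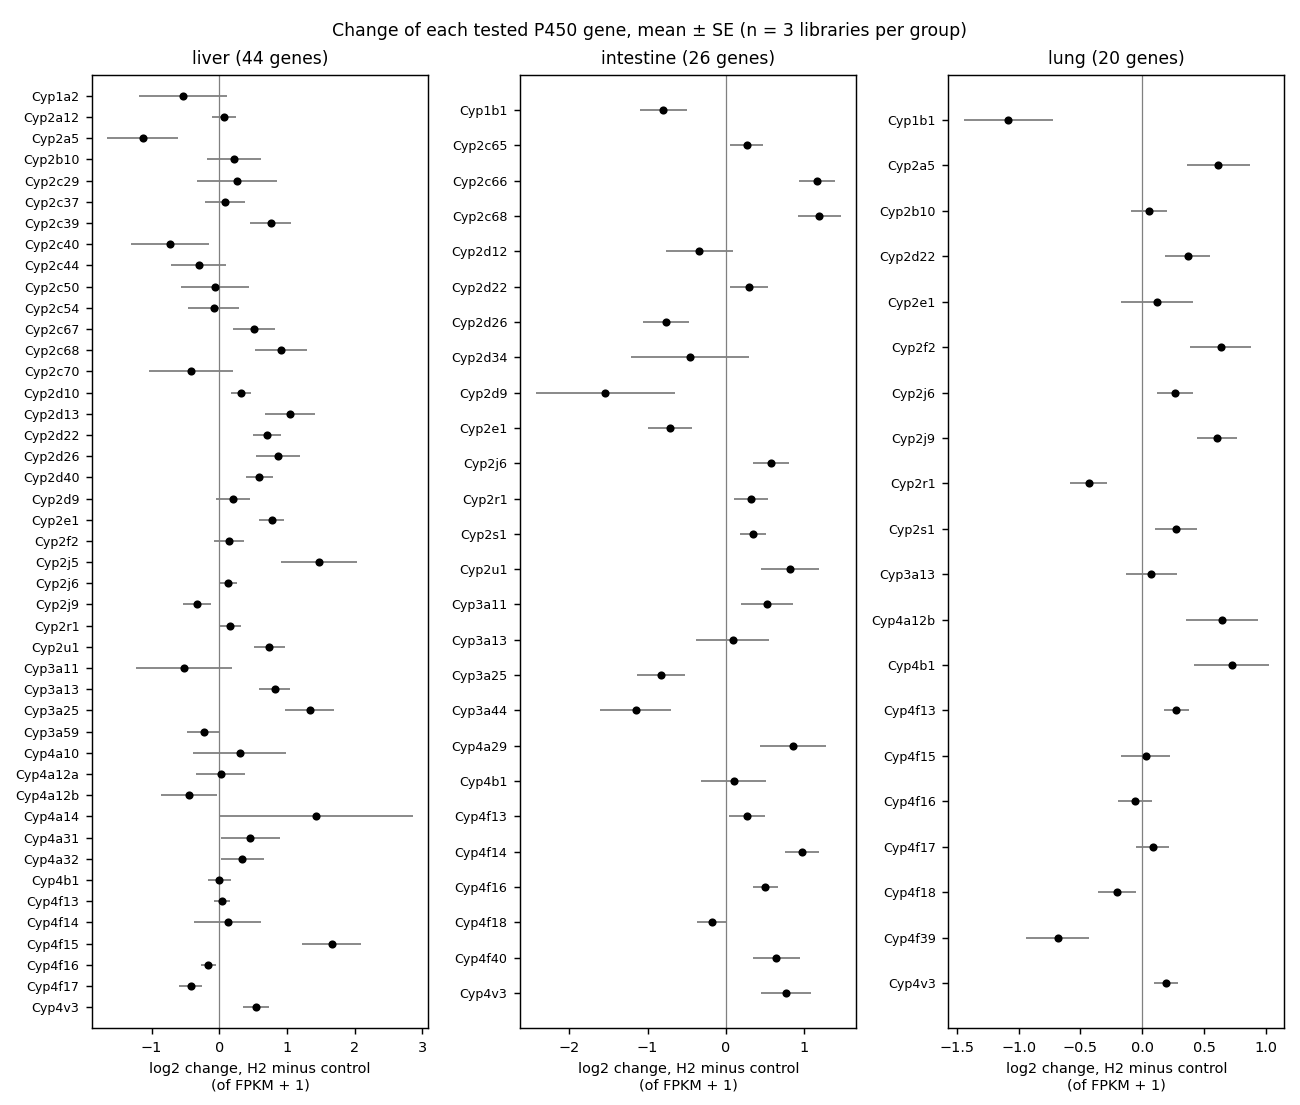
Log2 change of FPKM + 1, H2 minus control, of every tested P450 gene in liver (44), intestine (26) and lung (20). Points are limma estimates and bars 1 SE (n = 3 libraries per group). In liver all 6 Cyp2d points lie right of 0, and Cyp1b1 lies left of 0 in intestine and lung.

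Cyp2e1 had the smallest p in liver. Its level was 1074, 1440 and 1097 FPKM in H2 livers, against 856, 642 and 616 FPKM in control livers. All H2 livers were above all control livers, and the log2 change was 0.77 ± 0.18 (SE), with a limma adjusted p of 0.167. In H2 livers Cyp2e1 averaged 1204 ± 205 FPKM, and in control livers 705 ± 132 FPKM (SD, n = 3 each).

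The Cyp2d subfamily, whose human member CYP2D6 clears many antidepressants and opioids, had 6 tested genes in liver. All were above 0 in log2 change, also under both other scalings, with a median of 0.65 and 0 called. In intestine 4 of 5 tested Cyp2d genes were below 0, with a median of -0.45 and 0 called. Cyp2d22 had 21.7, 27.4 and 20.8 FPKM in H2 livers, against 14.7, 17.3 and 10.3 FPKM in control livers, a log2 change of 0.70 ± 0.20 with an adjusted p of 0.168. Its groups did not overlap. Cyp2d26, the most abundant of the subfamily, had 323, 315 and 314 FPKM in H2 livers, against 135, 303 and 128 FPKM in control livers, a log2 change of 0.87 ± 0.32 with an adjusted p of 0.203. Control 2 lay close to the H2 livers and the other controls far below them.

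The next 2 Cyp2d genes, chosen after their values were seen, had groups that did not overlap. Cyp2d40 had 27.7, 37.7 and 32.9 FPKM in H2 livers, against 25.4, 23.4 and 16 FPKM in control livers, a log2 change of 0.59 ± 0.20 with an adjusted p of 0.188. Cyp2d13 had 18.6, 16.9 and 22.0 FPKM in H2 livers, against 8.5, 16.2 and 4.69 FPKM in control livers, a log2 change of 1.04 ± 0.37 with an adjusted p of 0.195. For both, the lowest of the 6 libraries was control 3. Cyp2d9, a steroid hydroxylase of male mouse liver chosen in the same way, overlapped, with 210, 305 and 215 FPKM in H2 livers and 287, 156 and 200 FPKM in control livers.

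In Cyp2j5, which epoxidises arachidonic acid, the control livers were divided. It had 147, 114 and 153 FPKM in H2 livers, against 35.8, 130 and 24.3 FPKM in control livers, a log2 change of 1.48 ± 0.56 with an adjusted p of 0.211. Control 2 lay within the H2 range, and the 2 other controls were below all H2 livers. Cyp2u1, a fatty acid hydroxylase, was low, with 2.15, 3.12 and 2.2 FPKM in H2 livers, against 0.667, 1.90 and 0.840 FPKM in control livers, a log2 change of 0.74 ± 0.23 with an adjusted p of 0.175. Again control 2 was the control nearest to the H2 livers.

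The Cyp3a subfamily, the main drug oxidases of liver and gut, split into genes with opposite signs in liver. Cyp3a25 had 11.5, 28.6 and 13.4 FPKM in H2 livers, against 8.90, 4.87 and 4.71 FPKM in control livers, a log2 change of 1.34 ± 0.36 with an adjusted p of 0.168. Cyp3a13 had 99.9, 111 and 99.1 FPKM in H2 livers, against 52.2, 83.6 and 44.9 FPKM in control livers, a log2 change of 0.82 ± 0.23 with an adjusted p of 0.168. Neither pair of groups overlapped. Cyp3a11, the main PXR target of mouse liver, was chosen after its values were seen. It had 43.0, 76.8 and 52.6 FPKM in H2 livers, against 196, 23.2 and 113 FPKM in control livers, a log2 change of -0.52 ± 0.72 with an adjusted p of 0.690. Control 2 was the lowest of the 6 libraries and control 1 the highest, an 8.44-fold range.

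Several bile acid, toxicant and epoxygenase genes had the control pattern of Cyp3a11. Cyp2c70, which makes muricholic acids, had 99.6, 184 and 113 FPKM in H2 livers, against 410, 66.1 and 183 FPKM in control livers, a log2 change of -0.42 ± 0.62 with an adjusted p of 0.710. Cyp1a2, an Ahr target that oxidises caffeine, had 10.7, 16.5 and 7.16 FPKM in H2 livers, against 40.3, 5.24 and 18.6 FPKM in control livers, a log2 change of -0.53 ± 0.65 with an adjusted p of 0.651. For both, control 1 was the highest library and control 2 the lowest. Cyp2a5, the coumarin and nicotine oxidase, had 4.23, 4.56 and 2.21 FPKM in H2 livers, against 17.0, 3.23 and 11.9 FPKM in control livers, a log2 change of -1.13 ± 0.52 with an adjusted p of 0.265. Here control 2 lay within the H2 range. The 10 tested Cyp2c genes had a median log2 change of 0.01, with 5 above and 5 below 0.

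Other abundant liver members overlapped. Cyp2a12, a testosterone hydroxylase, had 208, 160 and 210 FPKM in H2 livers and 192, 209 and 148 FPKM in control livers. Cyp2b10, the classical CAR target, had 7.68, 7.06 and 8.62 FPKM in H2 livers and 14.1, 4.29 and 4.37 FPKM in control livers. Cyp2f2 had 40.8, 31.4 and 35.3 FPKM in H2 livers and 45.3, 28.7 and 25.4 FPKM in control livers. None of these differed by more than the spread between libraries (log2 changes of 0.07 ± 0.18, 0.22 ± 0.40 and 0.15 ± 0.23, adjusted p of 0.826, 0.768 and 0.728). Cyp2r1, a vitamin D hydroxylase, had 6.88, 8.72 and 9.37 FPKM in H2 livers and 6.03, 8.26 and 7.75 FPKM in control livers, and also overlapped.

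Some members of low level had lower means in H2 livers. Cyp2j9 had 0.838, 0.978 and 0.518 FPKM in H2 livers and 1.76, 0.701 and 1.31 FPKM in control livers. Cyp2c40 had 0.174, 0.799 and 0.113 FPKM in H2 livers and 4.87, 0.239 and 0.459 FPKM in control livers, where control 1 alone was above 1 FPKM. Both overlapped, with log2 changes of -0.32 ± 0.20 and -0.72 ± 0.57 and adjusted p of 0.379 and 0.474.

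Family 4 held genes with even and with uneven values in liver. Cyp4f15, a fatty acid and eicosanoid hydroxylase, had 11.6, 11.5 and 12 FPKM in H2 livers, against 3.14, 6.76 and 1.01 FPKM in control livers, a log2 change of 1.66 ± 0.44 with an adjusted p of 0.168. The H2 livers lay close together and above every control liver. Cyp4f17 had 2.19, 3.37 and 2.91 FPKM in H2 livers, against 5.02, 4.0 and 3.39 FPKM in control livers, a log2 change of -0.43 ± 0.17 with an adjusted p of 0.224. Its groups did not overlap, although H2 2 and control 3 almost met. Cyp4f16 had 1.31, 1.21 and 1.15 FPKM in H2 livers, against 1.45, 1.67 and 1.37 FPKM in control livers, a log2 change of -0.16 ± 0.11 with an adjusted p of 0.404, and did not overlap either.

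Cyp4f13, the most abundant Cyp4f gene of liver, had 16, 18.3 and 15.1 FPKM in H2 livers and 16.2, 17.1 and 14.7 FPKM in control livers. Cyp4b1 had 6.08, 4.44 and 7.25 FPKM in H2 livers and 5.34, 5.49 and 6.69 FPKM in control livers. Cyp4a12b, a fatty acid hydroxylase of male mice whose reads are shared with Cyp4a12a, had 11.9, 10.1 and 9.04 FPKM in H2 livers and 27.4, 15 and 7.01 FPKM in control livers. All 3 overlapped, with adjusted p of 0.870, 0.995 and 0.546.

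Cyp4a14, a fatty acid hydroxylase induced by PPARα, divided the livers without regard to treatment. It had 87.5, 5.34 and 110 FPKM in H2 livers, against 5.64, 93.3 and 4.11 FPKM in control livers, a log2 change of 1.43 ± 1.43 with an adjusted p of 0.576. H2 1, H2 3 and control 2 were high and the 3 other livers low. Cyp4a10, chosen after its values were seen, had 36, 8.0 and 34.7 FPKM in H2 livers and 18.6, 35.7 and 7.77 FPKM in control livers. Among 18 other PPARα targets, 1 was higher and 2 lower at an unadjusted p under 0.05, near the shares of 10.9% and 10.2% over all liver genes, and 0 were called. That count compares treatments and cannot show a division across them. The targets summed to 4854, 3032 and 4897 FPKM in H2 livers, against 3313, 4235 and 1874 FPKM in control livers. H2 1, H2 3 and control 2 were again the highest, with 43.4% of the sum from Fabp1. Whether these targets follow Cyp4a14 was not tested.

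**Figure D3:**
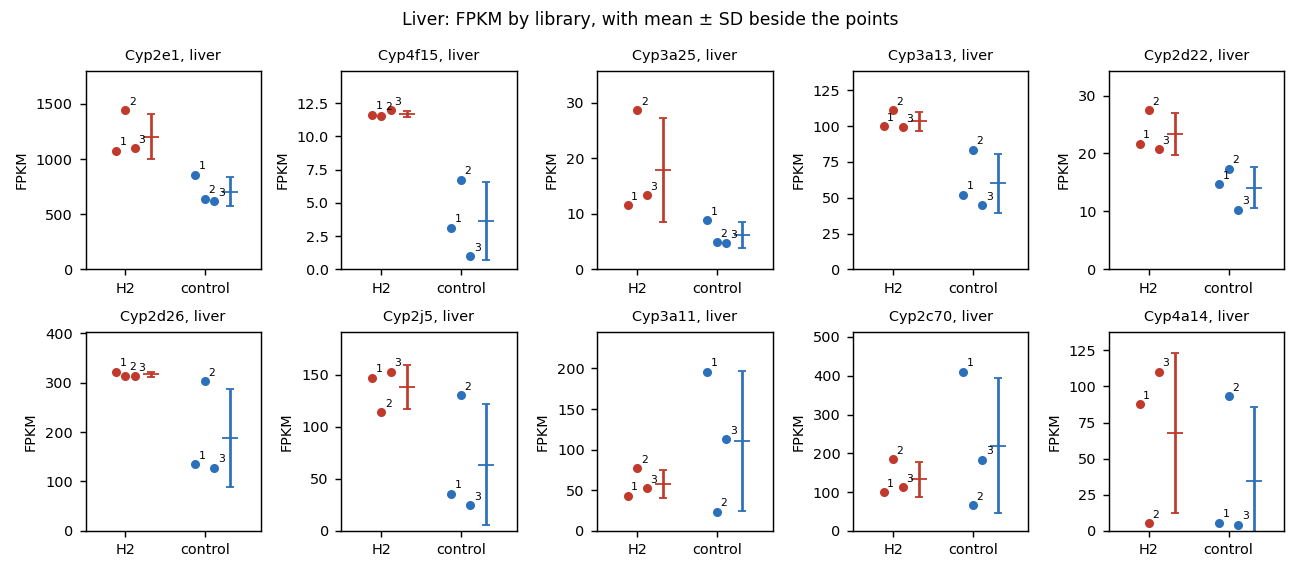
FPKM of 10 P450 genes in liver, H2 left of control, with library numbers beside the points and mean ± SD (n = 3) at the side. Control 2 lies near the H2 points for Cyp2d26 and Cyp2j5, below them for Cyp3a11 and Cyp2c70, and with H2 1 and H2 3 for Cyp4a14.

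Without control liver 2, 11 of 44 P450 genes were called, 9 higher and 2 lower in H2 livers, where 28.2% of all 10057 genes tested were called. The 9 higher were Cyp2d13, Cyp2d22, Cyp2d26, Cyp2e1, Cyp2j5, Cyp2u1, Cyp3a13, Cyp4f15 and Cyp4v3. The 2 lower were Cyp2a5 and Cyp3a11. In that fit Cyp2e1 had a log2 change of 0.71 ± 0.20 with an adjusted p of 0.0399, and Cyp2j5 2.18 ± 0.20 with an adjusted p of 0.00137. Cyp3a11 had a log2 change of -1.40 ± 0.31 with an adjusted p of 0.0189. Leaving out any of the 5 other livers gave 0 calls. Control 2 was the control nearest to the H2 livers for most genes, so leaving it out favours calls.

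The regulators and partners of P450 enzymes were read from lists. Of 20 tested regulators in liver, 4 were higher and 0 lower at an unadjusted p under 0.05, where 10.9% of all liver genes were higher and 10.2% lower, with a median log2 change of 0.22 and 0 called. CAR (Nr1i3) had 22.2, 28.6 and 26.2 FPKM in H2 livers, against 4.52, 12.2 and 1.48 FPKM in control livers, a log2 change of 2.23 ± 0.54 with an adjusted p of 0.167. Its groups did not overlap. PXR (Nr1i2) had 19.1, 17.9 and 17.4 FPKM in H2 livers, against 11.2, 15.6 and 7.27 FPKM in control livers, a log2 change of 0.69 ± 0.24 with an adjusted p of 0.193. Hlf, a circadian activator of detoxification genes, had 4.18, 5.01 and 4.93 FPKM in H2 livers, against 2.66, 3.70 and 2.09 FPKM in control livers, a log2 change of 0.60 ± 0.17 with an adjusted p of 0.168. For all 3, control 2 was the control nearest to the H2 livers.

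Against the same 10.9% higher and 10.2% lower over all genes, 5 of 8 heme synthesis genes in liver were higher and 0 lower at an unadjusted p under 0.05, with a median log2 change of 0.41. Of 12 tested pericentral genes that are no P450, 8 were higher and 1 lower, with a median of 0.74, and of 15 periportal genes 5 were higher and 1 lower, with a median of 0.18. Lect2, a pericentral gene, had 87.3, 110 and 84.8 FPKM in H2 livers, against 25.2, 46.7 and 16.1 FPKM in control livers, a log2 change of 1.77 ± 0.35 with an adjusted p of 0.147. Glul, the glutamine synthetase of the innermost pericentral layer, had the opposite sign, with 36.2, 36.7 and 38.5 FPKM in H2 livers, against 178, 39.1 and 136 FPKM in control livers. No gene of these lists was called in liver. Hepatocyte markers summed to 82702, 81001 and 73742 FPKM in H2 livers, against 102462, 80143 and 88940 FPKM in control livers, with overlap. Hpx made up 40.0% of that sum and was called lower in the mean over organs (log2 change -0.67 ± 0.17, limma adjusted p 0.0303). In liver 5 of these 9 markers had log2 changes above 0 and 4 below, so the sum is no plain reading of hepatocyte content. Of 9 macrophage markers, 7 were higher and 0 lower in H2 livers at an unadjusted p under 0.05, with a median log2 change of 0.65, and they summed to 320, 275 and 259 FPKM in H2 livers, against 260, 207 and 241 FPKM in control livers. Of 7 endothelial markers, 4 were higher and 0 lower, with a median of 0.49, and they summed to 55, 45.1 and 54.4 FPKM in H2 livers, against 47.7, 41.1 and 45.5 FPKM in control livers. Both sums overlapped between groups, and 0 of these markers were called by limma. The part of cell composition in the P450 and regulator values was not tested.

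In intestine, the 4 members with the smallest p were Cyp2c66, Cyp4f14, Cyp2c68 and Cyp4f16, all with higher values in H2 libraries, and again none passed. Of 26 genes tested 0 were called, where 0.0084% of all tested intestine genes were. At an unadjusted p under 0.05 there were 6 higher and 5 lower, against 6.51% and 5.96% of all genes. Groups did not overlap for 8 higher and 2 lower, against 10.6% and 8.75% of all genes. The median log2 change was 0.29, against 0.02 over all genes, with 17 of 26 above 0, or 16 of 26 after quantile normalization, against 52.2% of all genes.

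Cyp4f14, the most abundant P450 gene of the intestine, had 327, 463 and 302 FPKM in H2 intestines, against 172, 177 and 192 FPKM in control intestines, a log2 change of 0.98 ± 0.22 with an adjusted p of 0.326. Every H2 library was above every control, and the 3 controls lay close together. Cyp4f16, also a Cyp4f hydroxylase, had 24.5, 23.2 and 19.8 FPKM in H2 intestines, against 14.9, 14.7 and 16.7 FPKM in control intestines, a log2 change of 0.51 ± 0.16 with an adjusted p of 0.353. Cyp4v3, a fatty acid hydroxylase whose human counterpart CYP4V2 is mutated in Bietti crystalline dystrophy, had 43.1, 87.8 and 45.4 FPKM in H2 intestines, against 34.6, 23.2 and 41.2 FPKM in control intestines. Both had groups that did not overlap. For Cyp4v3 the H2 2 library, which also had the largest FPKM total, was far above the others. The log2 change was 0.77 ± 0.32 with an adjusted p of 0.399.

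The intestinal Cyp2c genes, epoxygenases of arachidonic acid, were 3, all above 0 in log2 change. Cyp2c66 had 2.13, 3.23 and 2.78 FPKM in H2 intestines, against 0.294, 1.1 and 0.609 FPKM in control intestines, a log2 change of 1.17 ± 0.23 with an adjusted p of 0.326. Cyp2c68 had 5.49, 10.1 and 5.83 FPKM in H2 intestines, against 1.55, 3.37 and 2.61 FPKM in control intestines, a log2 change of 1.20 ± 0.28 with an adjusted p of 0.326. Neither overlapped. Cyp2c65, the most abundant, had 22.4, 24.1 and 15.2 FPKM in H2 intestines and 14.5, 17.0 and 18.4 FPKM in control intestines, and its groups overlapped. Cyp2j6 had 31.5, 34.6 and 19.3 FPKM in H2 intestines, against 19.2, 18.2 and 17.3 FPKM in control intestines, a log2 change of 0.58 ± 0.23 with an adjusted p of 0.387.

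The 4 tested Cyp3a genes of the intestine had 2 log2 changes above and 2 below 0, or 1 above and 3 below after quantile normalization. Cyp3a25 had 14.6, 20.6 and 9.19 FPKM in H2 intestines, against 22.3, 22.1 and 34.9 FPKM in control intestines, a log2 change of -0.83 ± 0.30 with an adjusted p of 0.379. Cyp3a44 had 5.38, 3.26 and 1.32 FPKM in H2 intestines, against 6.53, 4.75 and 15.0 FPKM in control intestines, a log2 change of -1.15 ± 0.46 with an adjusted p of 0.387. Only the first had groups apart. Cyp3a13, the main intestinal Cyp3a, had 112, 402 and 192 FPKM in H2 intestines and 215, 128 and 261 FPKM in control intestines. The enterocyte markers summed to 4267, 10377 and 4896 FPKM in H2 intestines, against 5779, 2693 and 3769 FPKM in control intestines, so that H2 2 was highest and control 2 low in both. Adipocyte markers summed to 79.7, 82.5 and 183 FPKM in H2 intestines, against 303, 255 and 228 FPKM in control intestines. The part of enterocyte and fat content in these values was not tested.

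Remaining intestinal members were uneven within groups. Of 5 tested Cyp2d genes, 1 log2 change was above and 4 were below 0, against 6 of 6 above 0 in liver. Cyp2d26 had 11.9, 5.61 and 4.90 FPKM in H2 intestines, against 13.6, 12.9 and 11.1 FPKM in control intestines, a log2 change of -0.76 ± 0.29 with an adjusted p of 0.380. Cyp2d9 had 14.2, 0.354 and 0.238 FPKM in H2 intestines and 11, 8.42 and 4.56 FPKM in control intestines, a 59.8-fold range. In both, H2 1 was the H2 library nearest to the controls. Cyp2e1 was near the limit of 1 FPKM, with 0.519, 0.668 and 1.24 FPKM in H2 intestines and 3.01, 2.01 and 1.08 FPKM in control intestines. Cyp4b1 had 9.75, 23.3 and 10.5 FPKM in H2 intestines and 18.1, 6.89 and 15.0 FPKM in control intestines. The groups of Cyp2e1 and Cyp4b1 overlapped.

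Cyp2s1, an enzyme of epithelia outside the liver, had 13.4, 11.1 and 12.3 FPKM in H2 intestines, against 9.39, 7.89 and 11.1 FPKM in control intestines, a log2 change of 0.35 ± 0.17 with an adjusted p of 0.430. Cyp2u1 had 3.09, 5.05 and 11.4 FPKM in H2 intestines and 2.36, 2.6 and 3.55 FPKM in control intestines, a log2 change of 0.82 ± 0.37 with an adjusted p of 0.414. The groups of Cyp2s1 barely missed each other, and those of Cyp2u1 overlapped, with H2 3 far above the rest. Cyp4a29 had 1.36, 3.63 and 1.88 FPKM in H2 intestines and 2.15, 0.0516 and 0.589 FPKM in control intestines. Cyp2r1 had 0.918, 1.32 and 1.43 FPKM in H2 intestines and 0.534, 0.608 and 1.22 FPKM in control intestines. Both overlapped. Leaving out any of the 6 intestines in turn gave 0 calls among the P450 genes.

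In lung, Cyp2f2, Cyp4b1, Cyp2a5 and Cyp2j9 had higher values in H2 libraries and Cyp1b1, Cyp2r1 and Cyp4f39 lower ones, with none past the test. Of 20 genes tested 0 were called, where 0.00745% of all tested lung genes were. At an unadjusted p under 0.05 there were 5 higher and 3 lower, against 10.5% and 12.5% of all genes. Groups did not overlap for 6 higher and 3 lower, against 14.1% and 15.9% of all genes. The median log2 change was 0.15, against 0.00 over all genes, with 15 of 20 above 0, or 13 of 20 after quantile normalization, against 49.5% of all genes.

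Cyp2f2 was the most abundant P450 gene of the series, with 1753, 2194 and 1805 FPKM in H2 lungs, against 860, 1281 and 1690 FPKM in control lungs, a log2 change of 0.63 ± 0.25 with an adjusted p of 0.203. Control 3 was close to the lowest H2 lung and control 1 far below it. Cyp4b1, a lung enzyme that activates plant furan toxins, had 422, 459 and 517 FPKM in H2 lungs, against 180, 283 and 436 FPKM in control lungs, a log2 change of 0.72 ± 0.30 with an adjusted p of 0.216. Its groups overlapped through control 3 alone. Cyp2a5 had 69.5, 80.8 and 81.1 FPKM in H2 lungs, against 32.8, 57.2 and 66.3 FPKM in control lungs, a log2 change of 0.61 ± 0.25 with an adjusted p of 0.214.

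Cyp2b10, close to Cyp4b1 in level in lung, differed less than its spread, with 357, 438 and 407 FPKM in H2 lungs and 325, 433 and 404 FPKM in control lungs (log2 change 0.05 ± 0.14, adjusted p 0.836). Club cell markers, led by Scgb1a1, summed to 135187, 164031 and 121342 FPKM in H2 lungs, against 148261, 151283 and 158798 FPKM in control lungs, and their groups overlapped. Ciliated cell markers summed to 1109, 1241 and 1098 FPKM in H2 lungs, against 720, 852 and 1051 FPKM in control lungs. Like Cyp2f2 and Cyp4b1, the ciliated markers were lowest in control 1 and, among controls, highest in control 3. This order was not particular to airway cells. Endothelial markers (776, 898 and 1065 FPKM in control lungs) and alveolar type 2 markers (24805, 37267 and 38630 FPKM) shared it. Alveolar type 1 markers (1637, 2120 and 1899 FPKM) and macrophage markers (431, 426 and 402 FPKM) did not. The part of airway cell content was not tested.

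Smaller lung members are given by value. Cyp2j9 had 2.68, 3.40 and 4.16 FPKM in H2 lungs, against 1.56, 2.0 and 2.1 FPKM in control lungs, a log2 change of 0.60 ± 0.16 with an adjusted p of 0.172. Cyp4f13 had 12.6, 11.4 and 12.3 FPKM in H2 lungs, against 10.1, 10.4 and 8.99 FPKM in control lungs, a log2 change of 0.27 ± 0.10 with an adjusted p of 0.197. In both, all H2 lungs were above all controls. Cyp2r1 had 1.0, 0.743 and 0.578 FPKM in H2 lungs, against 1.31, 1.33 and 1.52 FPKM in control lungs, a log2 change of -0.43 ± 0.15 with an adjusted p of 0.184. Cyp4f39, known for hydroxylating very long fatty acids in skin, had 1.01, 1.5 and 1.34 FPKM in H2 lungs, against 3.98, 2.83 and 1.54 FPKM in control lungs, a log2 change of -0.68 ± 0.25 with an adjusted p of 0.197. In both, all H2 lungs were below all controls. Cyp4f18, the neutrophil leukotriene hydroxylase, overlapped, with 11.5, 14.1 and 9.66 FPKM in H2 lungs and 13.8, 14.7 and 12.3 FPKM in control lungs.

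Cyp2s1 had 54.6, 61.3 and 58.4 FPKM in H2 lungs and 45.7, 39.1 and 61.5 FPKM in control lungs, a log2 change of 0.27 ± 0.17 with an adjusted p of 0.350. Cyp4a12b had 1.29, 1.63 and 1.85 FPKM in H2 lungs and 0.080, 0.795 and 1.32 FPKM in control lungs, a log2 change of 0.64 ± 0.29 with an adjusted p of 0.233. In both, control 3 was the highest control and lay within or above the H2 range. Cyp2e1 had 13.9, 11.5 and 8.37 FPKM in H2 lungs and 6.28, 12.2 and 13.3 FPKM in control lungs. Cyp2j6 had 4.95, 6.17 and 5.77 FPKM in H2 lungs and 4.02, 5.53 and 4.08 FPKM in control lungs. Cyp3a13 had 3.29, 3.69 and 2.93 FPKM in H2 lungs and 2.03, 3.5 and 3.97 FPKM in control lungs. These 3 overlapped. Cyp4f16 had 9.6, 6.9 and 8.62 FPKM in H2 lungs and 8.99, 7.99 and 9.13 FPKM in control lungs, and overlapped as well.

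**Figure D4:**
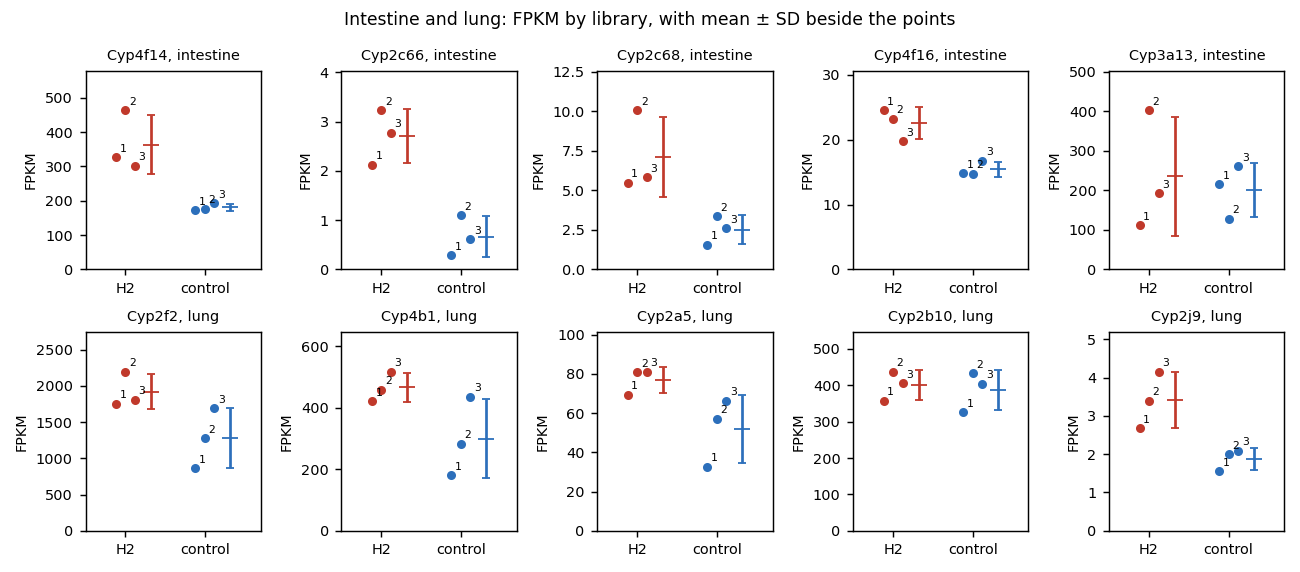
FPKM of 5 P450 genes in intestine (top) and 5 in lung (bottom), H2 left of control, with library numbers beside the points and mean ± SD (n = 3) at the side. Cyp4f14, Cyp2c66, Cyp2c68 and Cyp4f16 do not overlap in intestine, and control 3 is the control nearest to the H2 lungs for Cyp2f2, Cyp4b1 and Cyp2a5.

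Without control lung 3, 8 of 20 P450 genes were called, 6 higher (Cyp2a5, Cyp2f2, Cyp2j9, Cyp2s1, Cyp4a12b and Cyp4b1) and 2 lower (Cyp1b1 and Cyp4f39), where 24.5% of all 13424 genes tested were called. In that fit Cyp2f2 had a log2 change of 0.86 ± 0.21 with an adjusted p of 0.0315, and Cyp4b1 1.04 ± 0.21 with an adjusted p of 0.0213. Leaving out any of the 5 other lungs gave 0 calls. Control 3 was the control nearest to the H2 lungs for most genes, so leaving it out favours calls.

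Taken as the mean change over the 3 organs, 4 of 46 P450 genes passed the test. That count was near the share of all 13362 genes called in the same fit, 9.62%. Of 46 genes with a mean of at least 1 FPKM over the 18 libraries, 3 rose in H2 mice (Cyp2c68, Cyp4v3 and Cyp2d22), against 4.39% of all genes, and 1 fell (Cyp1b1), against 5.23%. The median log2 change was 0.09, against 0.00 over all genes, with 34 of 46 above 0, against 50.4% of all genes. For genes at 0 in intestine and lung, this mean only dilutes the liver change. Cyp1a2, for example, had -0.53 in liver and -0.18 in the mean.

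Cyp1b1, an Ahr target that oxidises oestradiol and polycyclic hydrocarbons mostly outside the liver, fell by 0.83 ± 0.20 on the log2 scale, with an adjusted p of 0.0241. In lung it had 2.98, 3.27 and 2.85 FPKM in H2 mice, against 14.5, 6.53 and 4.33 FPKM in control mice. In intestine it had 3.41, 1.16 and 2.76 FPKM in H2 mice, against 4.49, 3.59 and 6.46 FPKM in control mice. Both organs had all H2 libraries below all controls. In liver it was below 1 FPKM on average, with 0.113, 0.189 and 0.274 FPKM in H2 mice, against 1.24, 0.262 and 1.17 FPKM in control mice, overlapping through control 2. Within single organs the log2 change was -1.08 ± 0.36 in lung (adjusted p 0.180) and -0.80 ± 0.30 in intestine (adjusted p 0.380). The call was lost without control liver 1, control liver 3 or H2 liver 1, at an adjusted p of at most 0.0571, and held in the 15 other fits that left out 1 library.

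Of 5 other Ahr targets, 4 were tested in the mean over organs, with 2 log2 changes above and 2 below 0. Of these, 0 were called higher and 1 lower, against 4.39% and 5.23% of all genes. Tiparp, an Ahr target that feeds back on the receptor, fell by 0.82 ± 0.21 on the log2 scale, with an adjusted p of 0.0297. In liver it had 2.32, 4.59 and 2.59 FPKM in H2 mice, against 16.5, 6.04 and 14.2 FPKM in control mice, all H2 livers below all controls. Ahr had 5.66, 6.49 and 6.86 FPKM in H2 livers and 6.21, 5.92 and 4.30 FPKM in control livers, and its groups overlapped. Of the Cyp1a genes, Cyp1a1 reached 1 FPKM on average in no organ.

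Cyp2c68 rose by a log2 of 0.71 ± 0.18, with an adjusted p of 0.0307. It was listed at 0 in all 6 lungs, and in liver had 20.8, 9.57 and 22.8 FPKM in H2 mice, against 10.9, 10.6 and 4.94 FPKM in control mice, with overlap through H2 2. Its intestinal values are given above. Cyp4v3 rose by a log2 of 0.50 ± 0.14, with an adjusted p of 0.0411, and its groups did not overlap in any of the 3 organs. It had 43.2, 57.8 and 47.5 FPKM in H2 livers, against 34.2, 40.8 and 26.6 FPKM in control livers. In lung it had 26.3, 25.1 and 26.9 FPKM in H2 mice, against 22.7, 21.4 and 24.4 FPKM in control mice. Cyp2d22 rose by a log2 of 0.46 ± 0.13, with an adjusted p of 0.0440. In lung it had 23.5, 23.8 and 23.3 FPKM in H2 mice, against 13.3, 22.2 and 19.9 FPKM in control mice, and in intestine the groups overlapped.

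These 3 calls depended on single libraries and on the fit. Leaving out 1 of the 18 libraries lost the call of Cyp2c68 in 11 fits, that of Cyp4v3 in 13 and that of Cyp2d22 in 14, with adjusted p up to 0.0661, 0.0886 and 0.0923. The number of P450 genes called ran from 0, without control liver 3 or H2 liver 1, to 9 without control liver 2. Over all genes, 2.32% and 3.19% were called in the fits with 0, and 19.6% in the fit with 9. With treatment and number as a random block, Cyp4v3 (adjusted p 0.0514) and Cyp2d22 (adjusted p 0.0543) were not called. Without a filter on low values they were not called either, with adjusted p of 0.0568 for Cyp4v3 and 0.0615 for Cyp2d22, and Cyp2d22 was not called with a pseudocount of 0.1 (adjusted p 0.0509). Where the 3 organs of one treatment and number were averaged to 1 value, 0 were called, against 0.12% of all genes.

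**Figure D5:**
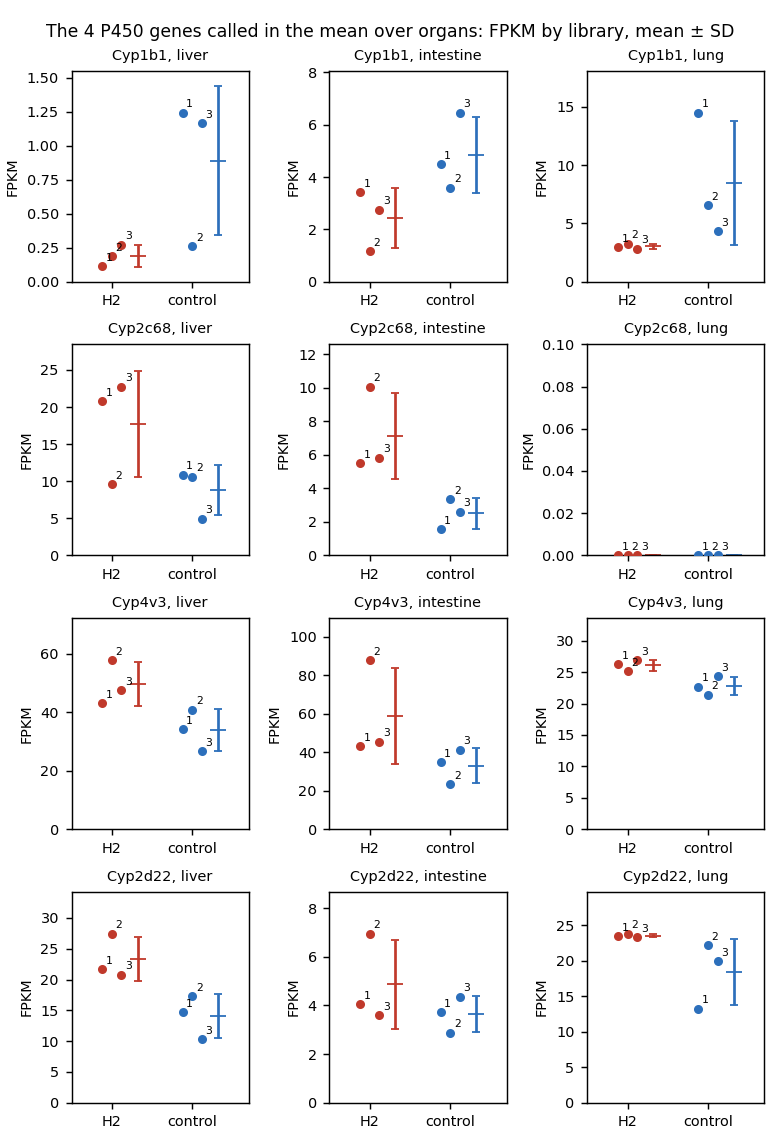
FPKM of the 4 P450 genes called in the mean over organs (rows) in liver, intestine and lung (columns), H2 left of control, with library numbers and mean ± SD (n = 3). Cyp4v3 is higher in every H2 library of each organ, Cyp1b1 lower in every H2 library of intestine and lung, and Cyp2c68 at 0 in lung.

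Promoters of 3 of these genes are shown because all 3 hold the core letters GCGTG of the Ahr response element. They are RefSeq sequences of build GRCm38.p6, from 250 bases before to 50 after the annotated start, on the gene's strand, 5′ to 3′, with GCGTG or its reverse complement CACGC in capitals. Cyp2d22, the other called gene, was not among the genes found with these letters. Cyp1b1 fell while Cyp2c68 and Cyp4v3 rose, and a link to Ahr was not tested. All 3 genes shown lie on the minus strand. Cyp1b1 spans chr17:79715012-79715311, Cyp2c68 chr19:39741052-39741351 and Cyp4v3 chr8:45333114-45333413.
Cyp1b1: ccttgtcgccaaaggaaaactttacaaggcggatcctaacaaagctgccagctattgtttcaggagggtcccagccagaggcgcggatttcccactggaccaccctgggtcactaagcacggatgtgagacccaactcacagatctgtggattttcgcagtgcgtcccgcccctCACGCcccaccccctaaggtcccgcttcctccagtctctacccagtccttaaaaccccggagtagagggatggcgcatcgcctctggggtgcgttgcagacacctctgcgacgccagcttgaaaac
Cyp2c68: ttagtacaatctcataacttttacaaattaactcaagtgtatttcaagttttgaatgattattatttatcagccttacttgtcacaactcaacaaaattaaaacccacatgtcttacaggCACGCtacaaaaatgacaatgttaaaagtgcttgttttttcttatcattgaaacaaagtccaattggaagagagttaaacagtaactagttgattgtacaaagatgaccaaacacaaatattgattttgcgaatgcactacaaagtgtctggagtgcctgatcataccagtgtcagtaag
Cyp4v3: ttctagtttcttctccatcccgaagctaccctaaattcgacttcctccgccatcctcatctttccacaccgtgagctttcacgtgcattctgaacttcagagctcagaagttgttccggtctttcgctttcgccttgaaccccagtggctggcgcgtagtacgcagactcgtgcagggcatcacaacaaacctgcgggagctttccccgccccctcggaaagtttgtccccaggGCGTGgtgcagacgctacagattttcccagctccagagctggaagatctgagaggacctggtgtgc
With the start base as 0, the letters lie at -76 to -72 in Cyp1b1, -130 to -126 in Cyp2c68 and -16 to -12 in Cyp4v3.

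RefSeq promoters were found for 65 of the 80 genes, in 72 windows. GCGTG, searched on both strands, lay in 14 of the 72 windows (19.44%), against 32.39% of all 32851 promoter windows. The direct repeat of AGGTCA with 1 base between (DR1), to which Hnf4a and PPARα with its partner bind, was searched with up to 1 mismatch in each copy. It lay in 11 windows (15.28%), against 2.4% of all. It was found upstream of Cyp2d9, Cyp2d10 and Cyp2d40 with the same letters, and upstream of Cyp3a25, Cyp3a57 and Cyp3a59 with another set, shown because neighbours of a gene cluster carry identical letters. The windows of Cyp2d40 (chr15:82764073-82764372) and Cyp3a25 (chr5:146009569-146009868) are on the minus strand of GRCm38.p6, and the sites are printed whole in capitals.
Cyp2d9, Cyp2d10 and Cyp2d40: AGGACAAAGGGCA
Cyp3a25, Cyp3a57 and Cyp3a59: AGCTCAAAGGTCA
The D-box TTATGCAA, bound by Dbp, Tef and Hlf, lay in 6 windows (8.33%), against 0.74% of all, upstream of Cyp2a4, Cyp2a5, Cyp2b10, Cyp2b19, Cyp2b23 and Cyp4f14. All but Cyp4f14 are Cyp2a and Cyp2b neighbours on chromosome 7. As for DR1, such windows are not independent, and the percentages are no measure of enrichment. The C/EBP palindrome TTGCGCAA lay in 0 windows, against 0.18% of all. No sites of different motifs overlapped. A match describes letters in the window and not a bound site.

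Partners and regulators were also tested in the mean over organs. Of 21 regulators, 1 rose (Nr1i2, by a log2 of 0.43 ± 0.13, adjusted p 0.0453) and 1 fell (Cebpb, an inflammation-linked C/EBP factor, by 0.72 ± 0.14 on the log2 scale, adjusted p 0.0116), counts near the shares of 4.39% higher and 5.23% lower over all genes. Cebpb had 71.4, 67.1 and 61.9 FPKM in H2 lungs, against 166, 134 and 93.8 FPKM in control lungs, and H2 was below control without overlap in all 3 organs. Of 6 electron partners, 1 rose, the cytochrome b5 of the mitochondrial outer membrane Cyb5b, by a log2 of 0.29 ± 0.06 with an adjusted p of 0.0196. Of 8 heme synthesis genes, 1 rose, the uroporphyrinogen synthase Uros, by a log2 of 0.67 ± 0.18 with an adjusted p of 0.0352. Por itself had 98.9, 139 and 139 FPKM in H2 lungs and 241, 288 and 126 FPKM in control lungs, and was called neither in an organ nor in the mean over organs.

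Whether H2 and control differed by another amount in one organ than in another was tested directly. Of 46 genes, 0 were called for liver minus intestine (0.217% of all genes called), 0 for liver minus lung (0.239%) and 0 for intestine minus lung (1.24%). At an unadjusted p under 0.05 they numbered 10 for liver minus intestine (15.5% of all genes), 11 for liver minus lung (12.3%) and 5 for intestine minus lung (19.7%). The 3 differences share libraries. The 46 genes were taken by their mean over all 18 libraries, which some reached through liver alone. Cyp1a2, Cyp2c29, Cyp2c37, Cyp2c50 and Cyp2c54 were at 0 in every intestine and lung library. Their intestine minus lung difference was therefore fixed at 0, and the counts for that difference understate how many testable genes differed. The smallest p was that of Cyp3a25 between liver and intestine, where the log2 changes differed by 2.17 ± 0.44 with an adjusted p of 0.0560.

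Around the limit of 1 FPKM, Cyp2c38 (0.845 FPKM) and Cyp2a22 (0.860 FPKM) stayed just below in liver, and Cyp2j9 (1.02 FPKM) and Cyp2c40 (1.11 FPKM) just passed. In intestine Cyp2j9 (0.588 FPKM) and Cyp2d10 (0.659 FPKM) stayed below, and Cyp2r1 (1.0 FPKM) and Cyp2d12 (1.05 FPKM) passed. In lung Cyp1a1 (0.384 FPKM) and Cyp4a32 (0.685 FPKM) stayed below, and Cyp2r1 (1.08 FPKM) and Cyp4a12b (1.16 FPKM) passed. All are means over the 6 libraries of the organ.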

How the data were processed

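RNA of 18 libraries was measured by RNA-seq. Per the labels' protocols, miRNeasy Micro columns gave the RNA and a TruSeq stranded mRNA kit the libraries. The submitters' processing notes name Cufflinks 2.2.1, SAMtools 0.1.19, Bowtie2 2.2.3 and TopHat2 2.0.13, with mm10 as the build. Annotation, options and the treatment of reads that fit several genes are not given in the sources used here. All deposited values are the authors' FPKM, with no counts, so no count model was used. Fragment depth was estimated from the spacing of low FPKM values and is approximate.

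Values were tested on the log2(FPKM + 1) scale by limma 3.58.1 under R 4.3.3 (empirical Bayes with trend, two-sided), so changes of genes near 1 FPKM are understated. Each organ had its own fit of 6 libraries, restricted to genes averaging at least 1 FPKM there. The mean over organs and the organ differences came from 1 fit of all 18 libraries. The Benjamini-Hochberg adjustment ran over every gene of a fit, and a gene was called under an adjusted p of 0.05. With 3 against 3 libraries an exact permutation test cannot go below a p of 0.1. Motif letters were searched in Python 3.11.15, and shared 50-base words were counted in GENCODE transcripts.

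Named genes are those called, the most abundant member of each subfamily in each organ, the 6 with the smallest p in each direction and organ, and the 2 on each side of the limit of 1 FPKM. Others are marked as chosen after their values were seen. The members, lists and rules were chosen with earlier results of these data known. The alternatives were other pseudocounts, filters, scalings and variance models, array weights, blocks on replicate number and leaving out each library. One file held a second column that repeats another library (0 values differ) and was not used. Protein sequences were not used here.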

Additional observations from a re-analysis of the deposited data

Results flagged for a closer look

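For 2 genes every H2 library moved one way in liver and every H2 library the opposite way in intestine, and the difference itself was tested. Both were picked for this pattern in the same values, so a small p for the difference is in part built in. The share of all genes with such a pattern was not counted. Cyp3a25 was higher in every H2 liver than in any control liver and lower in every H2 intestine than in any control intestine, and its log2 changes differed by 2.17 ± 0.44 (SE), with a limma p of 0.000188 and an adjusted p of 0.0560. Cyp4f16 was lower in every H2 liver and higher in every H2 intestine, and its log2 changes differed by -0.68 ± 0.17, with an adjusted p of 0.0984. Neither passed the adjusted threshold. In liver Cyp4f16 lay between 1.15 and 1.31 FPKM in H2 livers and between 1.37 and 1.67 FPKM in control livers. Both genes share part of their 50-base words with a neighbour, Cyp3a25 26.8% and Cyp4f16 26.5%.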

How the results depend on the processing

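Leaving out 1 library at a time, the P450 genes called ran from 0 to 11 in liver, 0 to 0 in intestine, 0 to 8 in lung and 0 to 9 in the mean over organs. For organ differences they ran from 0 to 8 (liver minus intestine), 0 to 6 (liver minus lung) and 0 to 1 (intestine minus lung), with 8 and 6 both without control liver 2, where 5.8% and 3.97% of all genes were called. Array weights gave 12 calls in liver (11 higher), 11 in lung (8 higher) and 14 in the mean over organs (12 higher), where 25.1%, 53.2% and 42.3% of all genes were called, and the weights were estimated with warnings of incomplete convergence. One fit of all 18 libraries gave 4 calls in liver (Cyp2d13, Cyp2d40, Cyp3a25 and Cyp4f15; 2.09% of all genes) and 1 in intestine (Cyp4f16; 1.68%). Quantile normalization gave 1 call for liver minus intestine (Cyp3a25; 0.239%). In the mean over organs, the replicate block gave 2 calls (Cyp1b1 and Cyp2u1; 5.09% of all genes), and 0 in each other comparison; Cyp2c68, Cyp4v3 and Cyp2d22 had adjusted p of 0.0522, 0.0911 and 0.0721 there. Treatment and number as a random block gave 2 (Cyp1b1 and Cyp2c68; 6.94%), and 1 mean per treatment and number 0. Why these counts moved was not tested. Deviations of same-numbered H2 and control libraries correlated at 0.332, -0.0799 and 0.0347 in liver, 0.156, -0.112 and -0.0253 in intestine and -0.00851, 0.116 and 0.00547 in lung, not all above 0.1, and the numbers were not taken to pair them. Across organs, control liver and intestine libraries of the same number correlated at 0.185, 0.212 and 0.0978, and those of different numbers at 0.000888 or less. H2 liver and intestine libraries of the same number stood at 0.0513, -0.012 and -0.0036. With lung the pattern was absent. Same-numbered control libraries stood at 0.136, -0.051 and -0.182 for liver and lung, and 0.186, -0.0919 and -0.0618 for intestine and lung. Control liver 2 and control lung 3 stood at 0.266, above every same-numbered pair of organs. The labels do not say whether same-numbered libraries come from the same mouse, and the mean over organs takes the libraries as independent. Over 30 single values the other fits kept the call or its absence 468 times, lost it 53 times and gained it 28 times, and no direction reversed. These values were picked from the same libraries for an unadjusted p under 0.05 in an organ or a call in the mean over organs. A lack of reversals was therefore largely fixed in advance. With 3 libraries a group and genes near 1 FPKM resting on few fragments, changes smaller than the spread were not detectable.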
